A study of Mus musculus with 4 samples.

Results

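The 10 heat shock chaperone genes Hspa1a, Hspa1b, Hspa8, Hsph1, Dnajb1, Hsp90aa1, Hsp90ab1, Hspb1, Hspd1 and Hspe1 were followed by gene symbol through single cells of the mouse distal jejunum, as 10 of the 32286 features counted. Hsph1, Hsp90aa1 and Hspb1 had been picked because their summed counts were higher in several cell types of EC-Foxc-DKO mice, so their genotype differences are given here as a description and without a test. The other 7 genes were tested. All 4 mice were adult males studied 18.5 h after small-intestinal ischemia and reperfusion (I/R), and no untreated or sham-operated mouse was among the libraries analysed. The 2 Control mice carried floxed alleles of both forkhead factor genes and no Cre (Foxc1fl/fl;Foxc2fl/fl). The 2 EC-Foxc-DKO mice carried in addition Cdh5-CreERT2, in which the Cdh5 promoter limits a tamoxifen-activated Cre recombinase to endothelial cells. By the methods of the paper, adult mice received tamoxifen by oral gavage on consecutive days, and the I/R surgery followed days later. Each mouse gave 1 library of unique molecular identifiers (UMIs, 1 per captured RNA molecule), and each cell type was rebuilt here by clustering, so that a name such as BECs (blood endothelial cells) stands for cells that carry the markers of that type.

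Chaperones bind unfolded protein and help it to fold, to be moved or to be degraded. The HSP70 proteins do so with ATP, started by J-domain proteins of the HSP40 family and released by nucleotide exchange factors of the HSP110 family, while HSP90 takes over late-folding clients such as kinases and receptors. Small heat shock proteins hold clients without ATP, and HSP60 with its lid HSP10 forms the folding chamber of the mitochondrial matrix. Under heat, oxidative or ischemic stress the factor HSF1 forms trimers that bind heat shock elements, which are inverted repeats of GAA, and switches on the inducible members. In the gut the constitutive members are known to be abundant in dividing crypt cells.

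The genes fall into roles by that biology. Hspa1a (ENSMUSG00000091971) and Hspa1b (ENSMUSG00000090877) are the inducible HSP70 genes, Hspa8 is the constitutive one, Hsph1 (ENSMUSG00000029657) encodes an HSP110 exchange factor and Dnajb1 (ENSMUSG00000005483) an inducible HSP40. Hsp90aa1 (ENSMUSG00000021270) and Hsp90ab1 are the inducible and the constitutive cytosolic HSP90, Hspb1 (ENSMUSG00000004951) is the small heat shock protein HSP27, and Hspd1 and Hspe1 are HSP60 and HSP10. In the GENCODE M21 annotation of GRCm38, Hspa1a lies at chr17:34969190-34972156 and Hspa1b at chr17:34956436-34959238, both on the minus strand, both with 1 exon, and 9951 bases apart. Their longest open reading frames were identical at 99.48% of aligned bases, whereas the last 300 bases of their transcripts were identical at 55.49%. Since the libraries captured the 3′ ends of RNA, reads from those ends can be told apart, but a read inside the coding part cannot be assigned, and the split between these neighbours is given as uncertain. Hspd1 (chr1:55077835-55088243, minus strand, 12 exons) and Hspe1 (chr1:55088132-55091307, plus strand, 4 exons) lie head to head, and their annotated ends share 112 bases.

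The upstream sequences of Hspa1a, Hspa1b and Hspb1 are shown because these genes were at 0 in the most cell types (4, 3 and 6 of 22). A 30-base stretch between Hspd1 and Hspe1 is shown because these neighbours lie head to head and were both highest in crypt cells. All are written 5′ to 3′ in the direction of the gene (plus strand for the shared stretch), from the RefSeq table of GRCm38.p6, with capitals marking matches to GAANNTTC or TTCNNGAA, which are 2 adjacent units of the heat shock element, on either strand. The windows are the 250 bases before the start of Hspa1a (chr17:34972157-34972406), Hspa1b (chr17:34959239-34959488) and Hspb1 (chr5:135887669-135887918), and the shared stretch is chr1:55088053-55088082.
Hspa1a: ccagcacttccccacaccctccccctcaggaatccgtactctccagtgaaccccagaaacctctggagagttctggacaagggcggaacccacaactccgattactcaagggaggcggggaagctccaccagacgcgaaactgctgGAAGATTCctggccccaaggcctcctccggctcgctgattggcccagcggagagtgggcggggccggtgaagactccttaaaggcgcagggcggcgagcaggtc
Hspa1b: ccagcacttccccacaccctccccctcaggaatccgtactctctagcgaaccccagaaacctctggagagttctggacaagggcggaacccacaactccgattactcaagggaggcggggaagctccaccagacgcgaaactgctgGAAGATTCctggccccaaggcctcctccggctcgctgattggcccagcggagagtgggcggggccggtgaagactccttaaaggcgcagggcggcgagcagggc
Hspb1: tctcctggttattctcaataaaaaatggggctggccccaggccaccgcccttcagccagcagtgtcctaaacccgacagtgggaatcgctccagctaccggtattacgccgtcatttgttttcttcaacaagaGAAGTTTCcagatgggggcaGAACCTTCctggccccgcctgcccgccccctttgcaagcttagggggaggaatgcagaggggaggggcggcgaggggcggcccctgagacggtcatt
Hspd1/Hspe1: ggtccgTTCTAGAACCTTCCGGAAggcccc
The windows of Hspa1a and Hspa1b differed at 3 of 250 positions and held 1 match each, from base -104 to base -97 before the start. Hspb1 held 2 matches. The stretch between Hspd1 and Hspe1 held 2 overlapping matches to the longer motif of 3 units (GAANNTTCNNGAA or TTCNNGAANNTTC). Together they run from base -89 to base -72 before the start of Hspe1, in capitals over all 18 bases. These 18 bases lie inside the annotated Hspd1 gene, in a part annotated as exon. Windows were found for 7 of the 10 genes, some with 2 annotated starts, and any window of a gene counted. The 3-unit motif was in 2 of these 7, against 0.466% of 32851 upstream windows of all genes, and the 2-unit motif, which every 3-unit match contains, was in 6 of 7, against 12.8%. The genes are not independent here, since the windows of Hspd1 and Hspe1 share 215 bases and this 1 element, and those of Hspa1a and Hspa1b are nearly identical. The all-gene share counts single windows. Dnajb1 held neither. A match is a description of letters and not evidence of binding.

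The libraries differed in ways that touch every result. They held 22679 barcodes in all, of which 5615 (24.8%) had at most 10% of their UMIs from mitochondrial genes and were kept. The median mitochondrial share per barcode was 24.9% and 54.0% in Control 1 and 2 and 15% and 25.8% in EC-Foxc-DKO 1 and 2, and 1446, 348, 2742 and 1079 cells were kept. Total depth was 72046346, 15557181, 64781444 and 38750638 UMIs. Control 2 was thus the shallowest and most damaged library. The 10 chaperones took 357722 UMIs, which is 0.416% of all UMIs in kept cells. Clustering gave 22 named cell types and left 198 cells unnamed. At least 10 cells were present for 17, 12, 21 and 14 types, and for 8 types in every mouse. In the cells called BECs, Cdh5 was found in 86.5% and Pecam1 in 94.7%, and in the cells called enteric glia Sox10 was found in 76.1%. The cells called CD8+ T cells were led by granzyme genes together with the gamma delta T cell genes Trdc and Tcrg-C1. Of the cells called CD4+ T cells only 27.4% had a UMI of Cd4, whereas 40.0% had one of Cd8a and 27.4% one of Cd8b1. Foxc1 had 1 and 5 UMIs in the BECs of the Control mice and 1 and 0 in those of the EC-Foxc-DKO mice, and Foxc2 had 0 in all 4, so these counts check the labels only weakly. Cre had 0 UMIs in both Control mice and 3 in the kept cells of each EC-Foxc-DKO mouse. Across libraries 51 barcode sequences occurred in 2 libraries each, involving 24 kept cells.

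Levels below are CPM (a gene's UMIs scaled to a common total of 1000000 UMIs) over the summed cells of 1 type in a mouse, given as the mean ± SD over the mice with at least 10 such cells. They are compared for 1 gene across cell types. Since cell types were formed from the same counts, the order of types is a description without a test. Clustering again without the chaperone genes left the leading type of every one of the 10 genes in place. That could change little, since 2913 of the 2923 variable genes remained and only 4 of the 10 were among the 2923. The step that split stromal cells from myocytes and pericytes still used the chaperone genes.

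The constitutive and mitochondrial chaperones were highest in crypt cells, the dividing Olfm4-positive epithelium. Hspa8 reached 3310, 2307, 3750 and 3950 CPM there in Control 1, Control 2, EC-Foxc-DKO 1 and EC-Foxc-DKO 2 (3329 ± 732, n = 4), and Control 2 was the low sample. Tuft cells (2302 ± 406, n = 3) and Macrophage 2 cells (2110 ± 830, n = 4) followed for Hspa8, and their ranges overlapped with that of crypt cells. The lowest Hspa8 levels were in top enterocytes (185 ± 19.7, n = 2), 18.0-fold below crypt cells. Hsp90ab1 was the steadiest of the 10 genes in crypt cells, at 3975, 3971, 3845 and 3965 CPM (3939 ± 62.7, n = 4). That range lay above the range of the next type, germinal center B cells (2707 ± 351, n = 2), although 1 library of tuft cells (4496 in EC-Foxc-DKO 2) reached higher. Top enterocytes again were lowest, at 85.0 ± 23.9 CPM (n = 2).

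The mitochondrial chaperonin was the most restricted to crypt cells. Hspd1 had 1402, 873, 1258 and 1518 CPM in crypt cells, and every one of these lay above every mouse of tuft cells (345 ± 259, n = 3), the next type. Hspe1 had 1397, 1083, 1314 and 1573 CPM in crypt cells, above both mice of germinal center B cells, which came next at 557 and 545 CPM. Across all 22 types Hspe1 spanned 395-fold, from crypt cells down to top enterocytes (3.40 ± 0.811, n = 2). Hspd1 was at 0 UMIs in the neutrophils of both mice with enough cells. Of the UMIs of both genes, Hspd1 gave 48.2% ± 2.43 in crypt cells (n = 4) and 50.8% ± 2.00 in injury-state enterocytes (n = 3), against 29.8% ± 6.44 in follicular B cells and 23.2% ± 9.02 in plasma cells (both n = 4). The share was also low in Macrophage 3 cells (23.8% ± 1.71, n = 2) and CD4+ T cells (32.4% ± 6.55, n = 3). Non-immune types also lay below crypt cells, with 36.5% ± 4.67 in enteric glia, 39.9% ± 2.69 in bottom enterocytes and 41.8% ± 3.36 in BECs (n = 4 each). The chaperonin pair was thus counted in near-equal numbers in crypt cells. UMIs of the lid outnumbered those of the chamber in these immune types and in enteric glia, bottom enterocytes and BECs. This did not hold in every type. On few UMIs, Hspd1 had 13 against 9 and 7 against 6 in top enterocytes, and 10 against 4 in the LECs of Control 2.

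**Figure D1:**
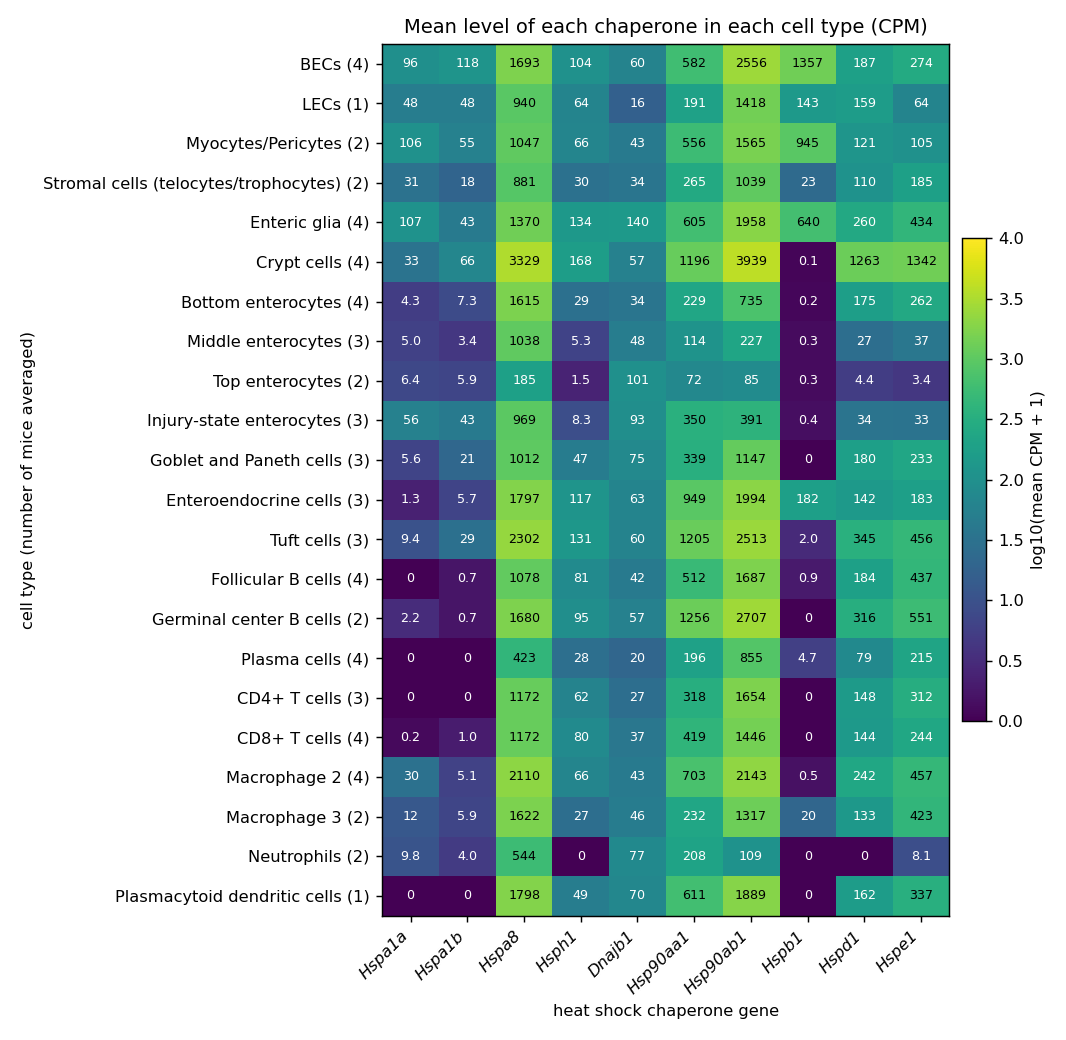
Mean level of each chaperone (columns) in each cell type (rows, with the number of mice averaged), printed in CPM and coloured by log10(mean CPM + 1). Crypt cells lead for Hspa8, Hsph1, Hsp90ab1, Hspd1 and Hspe1, BECs for Hspa1b and Hspb1, and enteric glia for Hspa1a and Dnajb1.

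Hsph1 and Hsp90aa1 were spread over more types. Hsph1 was at 127, 75.8, 157 and 312 CPM in crypt cells (168 ± 102, n = 4), with enteric glia (134 ± 44.1, n = 4), tuft cells (131 ± 113, n = 3), enteroendocrine cells (117 ± 50.5, n = 3) and BECs (104 ± 120, n = 4) within that range. It was at 1.46 ± 0.738 CPM in top enterocytes and at 0 UMIs in neutrophils (n = 2 each). Hsp90aa1 had its highest mean in germinal center B cells (1256 ± 253, n = 2, both of them EC-Foxc-DKO mice), close to tuft cells (1205 ± 713, n = 3) and crypt cells (1196 ± 387, n = 4), which overlapped. Keeping barcodes with up to 20% mitochondrial UMIs put crypt cells first for Hsp90aa1, at 1285 CPM.

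The inducible HSP70 gene Hspa1a had another pattern, with its 3 highest means in glia, in myocytes and pericytes and in BECs. It was at 96.2, 140, 115 and 76.6 CPM in enteric glia, the support cells of the gut nervous system (107 ± 27.1, n = 4). It was at 89.7 and 123 CPM in myocytes and pericytes (106 ± 23.5, n = 2) and at 60.5, 71.3, 123 and 127 CPM in BECs (95.6 ± 34.6, n = 4), and these 3 types overlapped. Hspa1b was highest in BECs, at 26.9, 31.2, 58.0 and 357 CPM, and 1 library decided that rank. Without EC-Foxc-DKO 2 the BEC mean of Hspa1b was 38.7 CPM in place of 118, below the 55.3 CPM of myocytes and pericytes, which that mouse did not enter. Crypt cells followed BECs in the full set, at 82.4, 0, 44.4 and 139 CPM (66.4 ± 58.8, n = 4). Below myocytes and pericytes came LECs (47.8 CPM in 1 mouse), injury-state enterocytes (43.0 ± 68.3, n = 3) and enteric glia (43.0 ± 54.6, n = 4), and the ranges of these types overlapped with that of BECs. Neither Hspa1a nor Hspa1b had a UMI in 135 CD4+ T cells, 103 plasma cells or 32 plasmacytoid dendritic cells, which allows shares of up to 2.22%, 2.91% and 9.38% of cells with a UMI. Hspa1a had none in 1378 follicular B cells either, which allows up to 0.218%, and Hspa1b had 3 UMIs there. These limits, and the exact binomial intervals below, cover counting error only.

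Free RNA in the droplets can give UMIs in cells that do not express a gene, and CD8+ T cells of like depth are given for comparison. A UMI of Hspa1a was found in 28.1% of 171 BECs (exact 95% interval 21.5 to 35.4%, median 4254 UMIs per cell) and in 28.3% of 92 enteric glia, against 0.244% of 410 CD8+ T cells with a like depth (median 4436 UMIs). Bottom enterocytes, with a median of 31280 UMIs, had one in 11.1% of 750 cells. With every cell thinned to 1000 UMIs the share was 9.78% in BECs, 9.72% in enteric glia and 0.510% in bottom enterocytes.

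Hspb1 was the most cell type-bound of the 10. It was at 558, 932, 1117 and 2821 CPM in BECs (1357 ± 1003, n = 4), at 508 and 1382 CPM in myocytes and pericytes (945 ± 618, n = 2) and at 722, 190, 282 and 1364 CPM in enteric glia (640 ± 536, n = 4). The spread between mice of 1 type was therefore as wide as the gaps between these types. Enteroendocrine cells, the hormone-producing epithelium, came next at 230, 238 and 78.4 CPM, and LECs (lymphatic endothelial cells) were at 143 CPM in the single mouse with enough cells. Crypt cells and all stages of enterocytes were below 1 CPM, and 6 types had no UMI. Hspb1 was detected in 78.4% of BECs (71.4 to 84.3%), 64.1% of enteric glia and 41.6% of enteroendocrine cells, against 0.667% of bottom enterocytes and 0.435% of follicular B cells.

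Dnajb1, the HSP40 partner of inducible HSP70, varied least, with an 8.78-fold span from enteric glia (241, 80.2, 100 and 138 CPM) to LECs (15.9 CPM in 1 mouse). Its second-highest mean was in top enterocytes, at 104 and 97.9 CPM, where Hspa8, Hsp90aa1, Hsp90ab1 and Hspe1 had their lowest means.

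Along the villus the chaperones split. Enterocytes are born in the crypt and move past the bottom and middle of the villus to its top, where they are shed, and the cells were compared within each mouse along these stages. Hspa8, Hsph1, Hsp90aa1, Hsp90ab1, Hspd1 and Hspe1 were lower at each next stage in every mouse that had both stages, which were 4 mice from crypt to bottom, 3 from bottom to middle and 2 from middle to top. For Hspd1 the ratio of the mean of a stage to that of the next was 7.20 from crypt to bottom, 6.73 from bottom to middle and 6.89 from middle to top. For Hspe1 the ratios were 5.11, 7.22 and 13.7, and for Hspa8 only 2.06, 1.64 and 5.33. Hsp90ab1 had ratios of 5.36, 3.18 and 2.54, and Hsp90aa1 5.21, 1.73 and 1.64. Dnajb1 went the other way after the crypt. It was 1.65-fold lower in bottom enterocytes than in crypt cells in 4 of 4 mice, then higher in middle than in bottom enterocytes in 3 of 3 mice (48.4 against 35.5 CPM) and higher in top than in middle enterocytes in 2 of 2 (101 against 46.8 CPM). Hspa1a and Hspa1b were 7.59-fold and 9.14-fold lower in bottom enterocytes than in crypt cells over the 4 mice, with the difference seen in the 3 mice that had any UMI in crypt cells, and stayed at 3.44 to 6.38 CPM from the middle of the villus on.

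**Figure D2:**
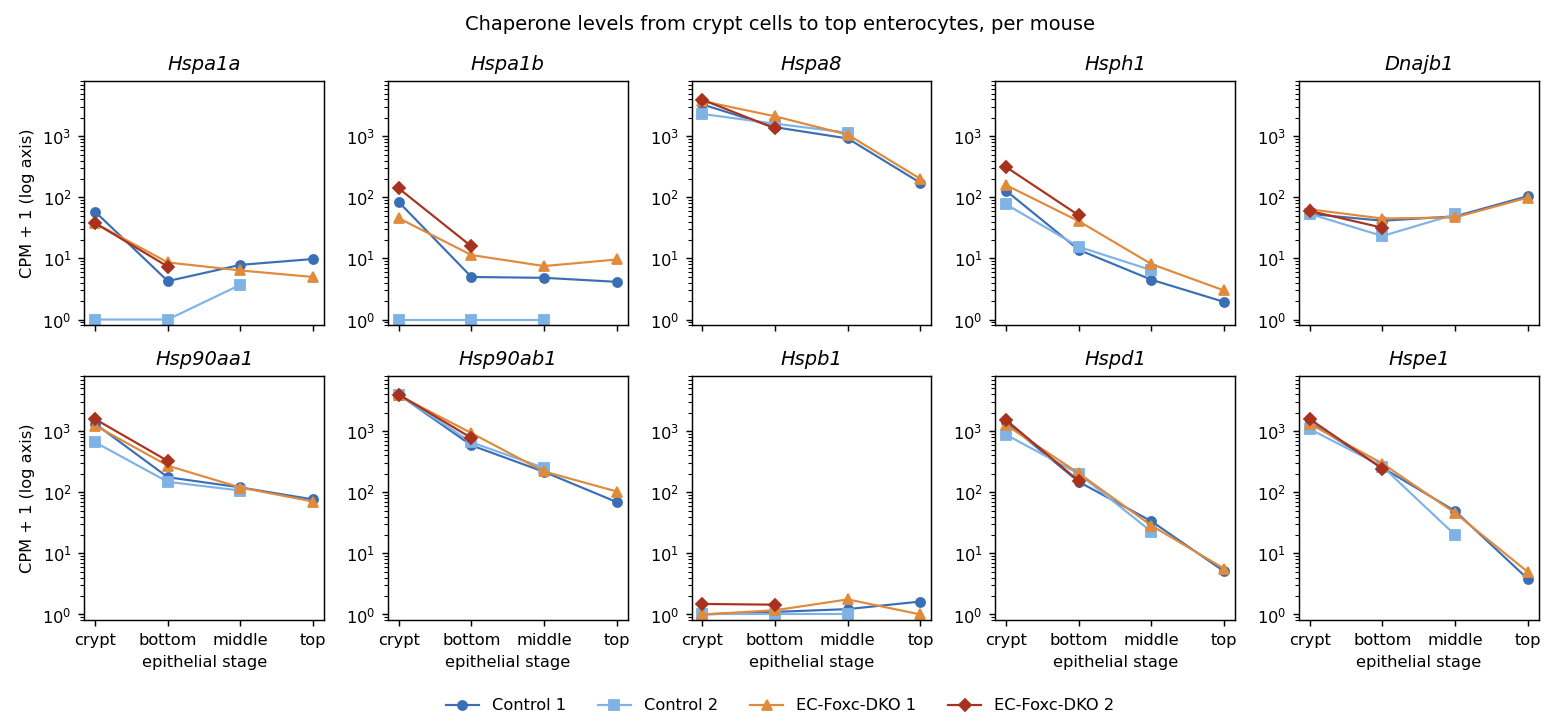
Level of each chaperone as CPM + 1 on a log axis (y) in crypt cells and bottom, middle and top enterocytes (x), with 1 line per mouse. A stage with fewer than 10 cells in a mouse has no point. The lines of 6 genes go down at each step in all mice shown, while Dnajb1 climbs from 34.4 CPM on average in bottom enterocytes to 101 CPM in top enterocytes.

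Injury-state enterocytes, marked by Sprr2a3 and Gml, had levels of Hspa8 (969 ± 104), Hspd1 (33.6 ± 15.7) and Hspe1 (32.8 ± 16.8, n = 3 each) that overlapped with middle enterocytes. Dnajb1 was at 92.6 ± 15.4 CPM, and its lowest mouse (79.1) was above the highest mouse of middle enterocytes (51.5). Hsp90aa1 (350 ± 200) was above bottom enterocytes on average, with overlapping ranges. Hspa1a was at 7.51, 1.78 and 159 CPM in Control 1, EC-Foxc-DKO 1 and EC-Foxc-DKO 2, and Hspa1b at 5.46, 1.78 and 122 CPM. The high library was 1 mouse only, and it rested on 51 and 65 of its 179 injury-state cells, with no more than 17.4% of the UMIs of either gene in 1 cell.

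The balance of inducible to constitutive members also shifted by cell type. In BECs Hsp90aa1 gave 14.2%, 8.27%, 15.6% and 26.4% of the UMIs of both cytosolic HSP90 genes (16.1% ± 7.56, n = 4). The share was 23.0% ± 6.11 in crypt cells and 23.4% ± 4.62 in bottom enterocytes (n = 4 each), 33.5% ± 3.27 in middle enterocytes (n = 3) and 46.5% ± 8.47 in top enterocytes (n = 2). Injury-state enterocytes were at 46.8% ± 1.82 (n = 3), and their lowest mouse (44.8%) was above every mouse of bottom and middle enterocytes (at most 35.7%). Neutrophils were the only type with more Hsp90aa1 than Hsp90ab1 UMIs in each mouse, at 66.7% and 65.0%. These shares rest on few UMIs, 20 against 10 in Control 1 and 13 against 7 in EC-Foxc-DKO 1. Both genes were lower toward the top in level, and Hsp90ab1 more so.

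**Figure D3:**
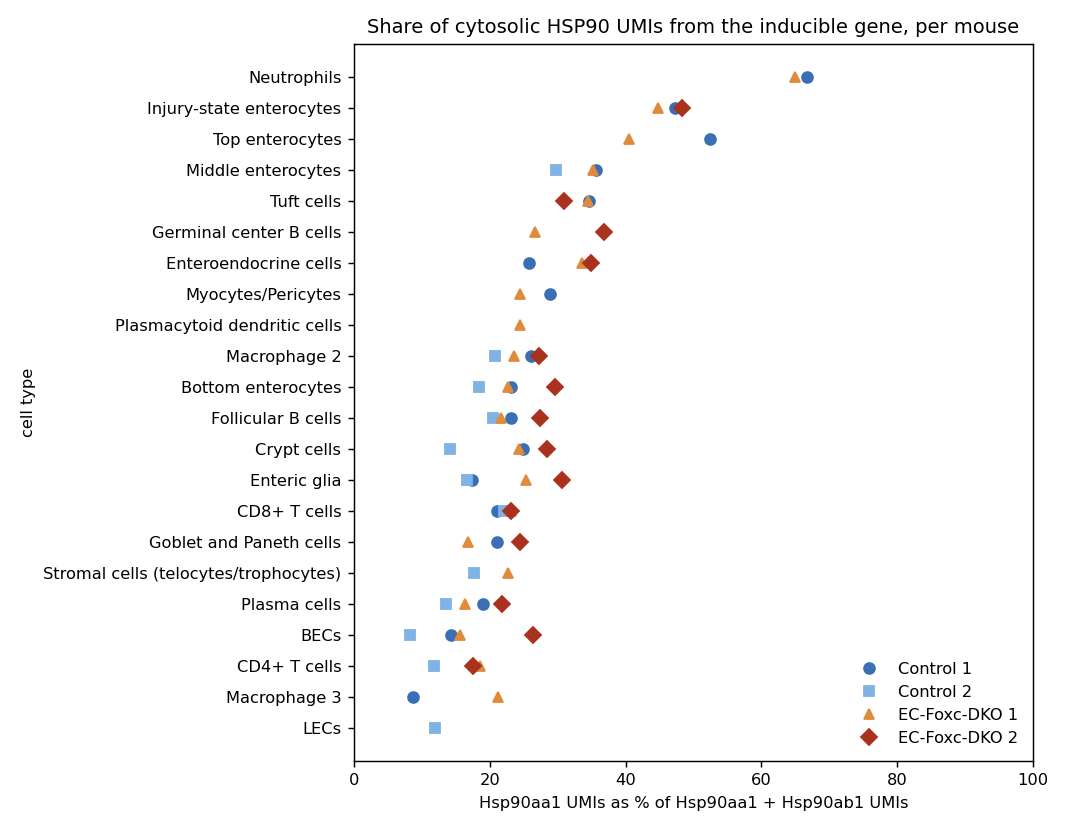
Hsp90aa1 UMIs as a percentage of the UMIs of Hsp90aa1 and Hsp90ab1 (x) in each cell type (y), with 1 point per mouse. The neutrophil points lie at 65.0% and 66.7%, on only 13 against 7 and 20 against 10 UMIs. The injury-state enterocyte points lie between 44.8% and 48.4%, and the BEC points between 8.27% and 26.4%.

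For HSP70, the inducible pair Hspa1a and Hspa1b made up 14.4% ± 5.58 of the UMIs of the pair and Hspa8 in myocytes and pericytes (n = 2), 10.3% ± 6.69 in BECs (n = 4) and 10.2% ± 3.91 in enteric glia (n = 4). In BECs the values were lowest at 5.39% and highest at 20.1%, the latter in EC-Foxc-DKO 2. Top enterocytes were at 6.22% ± 0.403 (n = 2), crypt cells at 2.60% ± 1.98 and bottom enterocytes at 0.725% ± 0.649 (n = 4 each), and follicular B cells at 0.0683%. Within the pair, Hspa1a gave 26.3% to 69.6% of the UMIs in the BECs of the 3 mice with at least 20 such UMIs, the lowest value again in EC-Foxc-DKO 2.

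The mouse with the highest level was counted over the cell types. Among all pairs of a gene and a cell type in which at least 2 mice could be compared and a UMI was found, EC-Foxc-DKO 2 had the highest level in 77 of 131 pairs (58.8%), against 29.6% if each mouse were highest equally often. EC-Foxc-DKO 1 was highest in 76 of 188, Control 1 in 26 of 162 and Control 2 in 9 of 103. EC-Foxc-DKO 2 was highest for all 10 genes in injury-state enterocytes, for 9 of 10 in tuft cells, for 8 of 9 in goblet and Paneth cells and for 8 of 10 in BECs. By gene, it led for Hsp90aa1 in 12 of 14 types and for Hsph1 and Hspe1 in 11 of 14, but for Dnajb1 in 4 of 14. These counts include Hsph1, Hsp90aa1 and Hspb1, which were picked for higher counts in EC-Foxc-DKO mice. Over the 7 other genes EC-Foxc-DKO 2 was highest in 47 of 93 pairs (50.5%, against 29.8% if each mouse were highest equally often), EC-Foxc-DKO 1 in 59 of 134, Control 1 in 20 of 115 and Control 2 in 8 of 72. The pairs share libraries and are not independent, so these counts carry no test. The same share over all genes was not computed, so the counts do not show whether this is particular to chaperones.

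Next, the genotypes were compared within the 8 cell types with at least 10 cells in each mouse, to ask whether endothelial loss of Foxc1 and Foxc2 went with a change of chaperone transcripts in BECs themselves or in the cells around them. Of 80 pairs of a gene and a type, 64 had enough counts to be fitted, and the 7 genes not picked for a difference gave 47 tests. In BECs all 10 genes passed the filter. There 7 of the 7 tested genes had a positive log2 fold change of EC-Foxc-DKO over Control, as had 50.2% of all genes fitted. None of the 47 tests passed an adjusted p of 0.05 (edgeR quasi-likelihood test, Benjamini-Hochberg over all genes of the type, lowest adjusted p = 0.755). At an unadjusted p under 0.05 there were 8 of 47, against 1049 of 40395 tests over all genes (2.60%). Of the 47 log2 fold changes 39 were positive, against 50.1% over all genes. The filter kept a gene that reached a count cutoff in as many mice as 1 genotype holds. Among the 8, Hspa1b and Dnajb1 in BECs and Hspd1 in plasma cells reached it only in EC-Foxc-DKO mice. Hspa1a and Hspa1b in bottom enterocytes, without a UMI in Control 2, needed an EC-Foxc-DKO mouse to pass. The filter acted on all genes, but these counts are no support for a difference of the chaperones. Genes of 1 type share the same 4 libraries and are not independent. The same fit over all genes called 1 of these 40395 tests, which is 0% of genes in BECs, bottom enterocytes, CD8+ T cells, crypt cells, enteric glia, follicular B cells and Macrophage 2 cells and 0.0894% in plasma cells.

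In BECs the inducible genes were higher in both EC-Foxc-DKO mice than in both Control mice. Hspa1a was at 60.5 and 71.3 CPM in Control mice and 123 and 127 CPM in EC-Foxc-DKO mice (log2 fold change 0.89, SE 0.36), resting on 9, 16, 53 and 15 UMIs. Each SE given with a log2 fold change was worked back from the F statistic of the edgeR test and is not the spread between mice. Hspa1b was at 26.9 and 31.2 CPM against 58.0 and 357 CPM (2.54, SE 0.87), resting on 4, 7, 25 and 42 UMIs. Dnajb1 was at 33.6 and 40.1 CPM against 88.2 and 76.5 CPM (1.15, SE 0.45). The adjusted p was 0.999 for each of these in edgeR, and the groups did not overlap. Hspa8 (0.45, SE 0.23) and Hsp90ab1 (0.58, SE 0.26) were also higher in both EC-Foxc-DKO mice. Hspd1 (0.88, SE 0.61) and Hspe1 (0.94, SE 0.66) overlapped between the groups. The groups did not overlap, with EC-Foxc-DKO above, for 5 of the 7 tested genes in BECs, and for 14.9% of all 3487 genes fitted there. Here and below, counts of genes whose groups did not overlap used CPM after the TMM scaling of the edgeR fit. Of the 5, Hspa1b and Dnajb1 passed the filter on low counts only through the EC-Foxc-DKO mice. Their place above Control was thus built in by the filter and is no support for a difference. The median log2 fold change of the 7 was 0.89, against 0.0017 for all genes. A UMI of Hspa1a or Hspa1b was found in 8 of 31, 10 of 29 and 33 of 87 BECs of the first 3 mice (25.8%, 34.5% and 37.9%) and in 18 of 24 of EC-Foxc-DKO 2 (75.0%, exact 95% interval 53.3 to 90.2%).

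The picked genes had the difference for which they were chosen. In BECs Hsph1 was at 33.6 and 26.7 CPM in Control mice and 74.3 and 280 CPM in EC-Foxc-DKO mice (log2 fold change 2.33). Hsp90aa1 was at 336 and 183 against 434 and 1376 CPM (1.76), and Hspb1 at 558 and 932 against 1117 and 2821 CPM (1.36). In all of them EC-Foxc-DKO 2 was far above the other EC-Foxc-DKO mouse. Without EC-Foxc-DKO 2 the log2 fold changes were 1.32, 0.77 and 0.59. For the tested genes without that mouse, Hspa1a stayed at 0.89, Dnajb1 was at 1.24 and Hspa8 at 0.50, while Hspa1b was at 0.98, Hsp90ab1 at 0.22, and Hspd1 (-0.24) and Hspe1 (-0.39) changed sign. Hspb1 was found in 17 of 31, 24 of 29 and 69 of 87 BECs of the first 3 mice and in 24 of 24 of EC-Foxc-DKO 2.

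**Figure D4:**
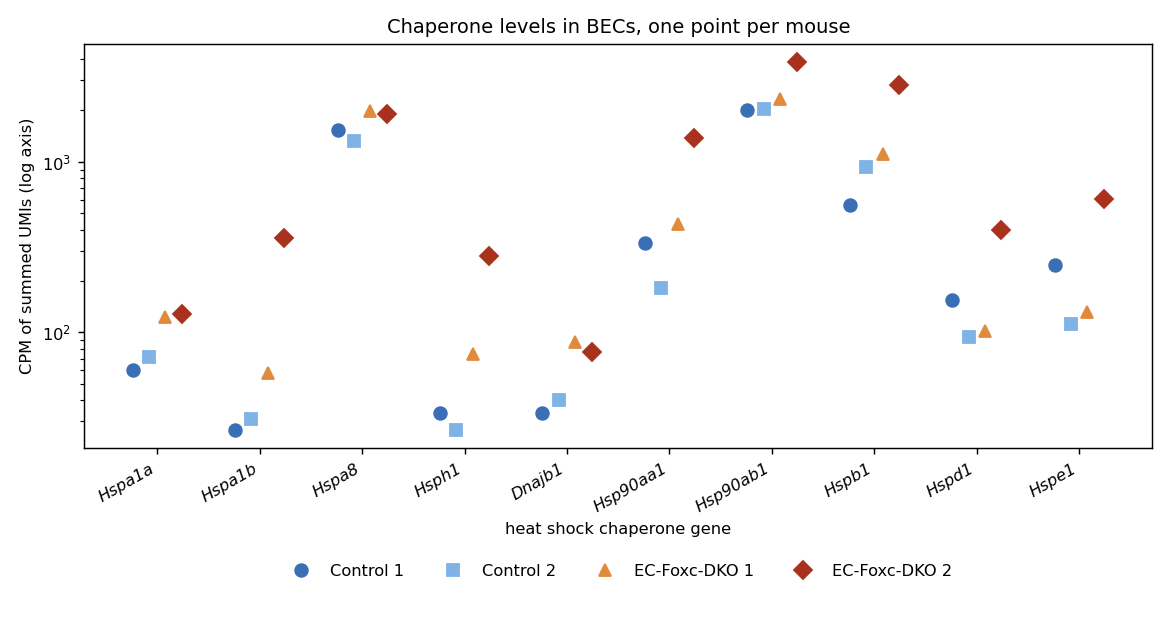
Level of each chaperone in BECs in CPM on a log axis (y), with 1 point per mouse for each gene (x). The points of both EC-Foxc-DKO mice lie above both Control mice for 5 of the 7 tested genes (14.9% of all BEC genes). Of the 5, Hspa1b and Dnajb1 passed the count filter only through the EC-Foxc-DKO mice. The points lie likewise for Hsph1, Hsp90aa1 and Hspb1, which were picked for higher counts in EC-Foxc-DKO mice.

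Other values moved with the same library in BECs. The summed level of 15 immediate early genes was 3166 and 6740 CPM in Control mice and 5417 and 12184 CPM in EC-Foxc-DKO mice. The 24 BECs of EC-Foxc-DKO 2 were the fewest, with a median of 4705 UMIs per cell, against 3589 to 5118 in the others. The 10 endothelial markers summed to 10090, 10850, 10582 and 9847 CPM and so were nearly level. Markers of smooth muscle cells and pericytes, in which Hspb1 is also high, summed to 13.4, 152, 218 and 535 CPM in BECs. Of these markers 2, 4, 7 and 4 of 10 were detected. In the myocytes and pericytes of 2 mice they summed to 27181 and 30573 CPM. Markers of enteric glia summed to 6.72, 17.8, 13.9 and 42.5 CPM in BECs, with at most 3 of 10 detected. Markers of stromal cells summed to 0, 8.92, 18.6 and 340 CPM. Markers of T cells summed to 13.4, 4.46, 107 and 263 CPM, with 2, 1, 8 and 7 of 10 detected. The 14 listed chaperones of the endoplasmic reticulum summed to 3845, 2924, 3109 and 6049 CPM. The part of these in the chaperone levels was not tested.

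In bottom enterocytes, whose sums were deep, Hspa1a was at 3.25 and 0 CPM in Control mice and 7.59 and 6.36 CPM in EC-Foxc-DKO mice (log2 fold change 1.42, SE 0.57), and Hspa1b at 3.97 and 0 against 10.3 and 14.7 CPM (2.02, SE 0.57), with edgeR adjusted p = 0.991 for both. Control 2 had no UMI of either gene among 897878 in 32 cells, which allows up to 3.34 CPM. Hsph1, picked, was at 12.8 and 14.5 against 39.7 and 49.6 CPM (1.79), and Hsp90aa1, picked, at 175 and 147 against 271 and 324 CPM (0.91). Hspa8, Dnajb1, Hspd1 and Hspe1 overlapped between the groups there, and Hsp90ab1 was at 585 and 654 against 928 and 773 CPM (0.48, SE 0.21). Both EC-Foxc-DKO mice were above both Control mice for 3 of 7 tested genes, against 17.4% of all genes. Hspa1a and Hspa1b were among the 3 and needed an EC-Foxc-DKO mouse to pass the filter. The cells that each mouse gave to this type were not alike. A finer clustering (Leiden resolution 1.0) gave 3 clusters with this name, and EC-Foxc-DKO 2 gave 30, 160 and 155 cells to them, against 115, 44 and 29 from Control 1, 22, 5 and 0 from Control 2 and 78, 28 and 15 from EC-Foxc-DKO 1. The part of this in the chaperone levels was not tested.

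In crypt cells, where Hspa8, Hsph1, Hsp90ab1, Hspd1 and Hspe1 had their highest means, Hsp90ab1 was level between genotypes (-0.03, SE 0.29). Hspa1a, Hspa1b, Hspd1 and Hspe1 overlapped between the groups there. Hspa8 (0.45, SE 0.31) and Dnajb1 (0.21, SE 0.25) were higher in both EC-Foxc-DKO mice, 2 of the 7 tested genes, against 14.9% of all genes. Hsph1, picked, was at 127 and 75.8 against 157 and 312 CPM (log2 fold change 1.17, and 0.66 without EC-Foxc-DKO 2). In plasma cells Hspd1 was at 27.7 and 16.4 CPM in Control mice and 137 and 133 CPM in EC-Foxc-DKO mice (2.14, SE 0.52), on 4, 3, 58 and 19 UMIs, and Hspe1 at 111 and 115 against 271 and 365 CPM (0.96, SE 0.36). Hsp90ab1 in plasma cells was at 470 and 486 against 1080 and 1384 CPM (0.82, SE 0.35). The edgeR adjusted p of all 3 was 0.755. In plasma cells 3 of 4 tested genes were higher in both EC-Foxc-DKO mice, against 24.4% of all 1119 genes fitted. Hspd1, 1 of these 3, passed the filter only through the EC-Foxc-DKO mice. The plasma cells were few and uneven in depth, with 11, 11, 66 and 15 cells and medians of 1532, 19269, 1318 and 10834 UMIs per cell. Jchain and Igha were each found in 46.6% of them, and Xbp1 in 40.8%, against 52.2% of all other cells. The part of this in the chaperone levels was not tested.

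In the immune and glial types, among the tested genes both EC-Foxc-DKO mice were above both Control mice for 2 of 5 in CD8+ T cells (all genes, 15.4%), 2 of 5 in follicular B cells (15.2%), 3 of 6 in Macrophage 2 cells (15.8%) and 1 of 6 in enteric glia (13.4%). In CPM without TMM scaling, Dnajb1 in follicular B cells overlapped, at 45.3 and 31.5 against 43.7 and 49.1. Hspa8 in enteric glia, counted as overlapping, was at 1480 and 972 against 1526 and 1502 without that scaling. The finer clustering split off a cluster of Macrophage 2 cells led by Fcrls, Cbr2, Mgl2 and Cd163, and it held 1 of 71, 30 of 36, 17 of 94 and 11 of 96 cells of the 4 mice. The part of this in the chaperone levels was not tested. In follicular B cells Hspd1 was at 210 and 205 CPM in Control mice against 184 and 138 CPM (-0.19, SE 0.35). In enteric glia Dnajb1 (-0.48, SE 0.54) and Hspa1a (-0.26, SE 0.54) had negative values with overlapping groups. Hspb1, picked, was at 722 and 190 against 282 and 1364 CPM there (0.77, and -0.66 without EC-Foxc-DKO 2). Of the picked genes, Hsp90aa1 had a positive log2 fold change in 8 of 8 types (0.37 to 1.76) and Hsph1 in 6 of 7 (-0.22 in follicular B cells).

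**Figure D5:**
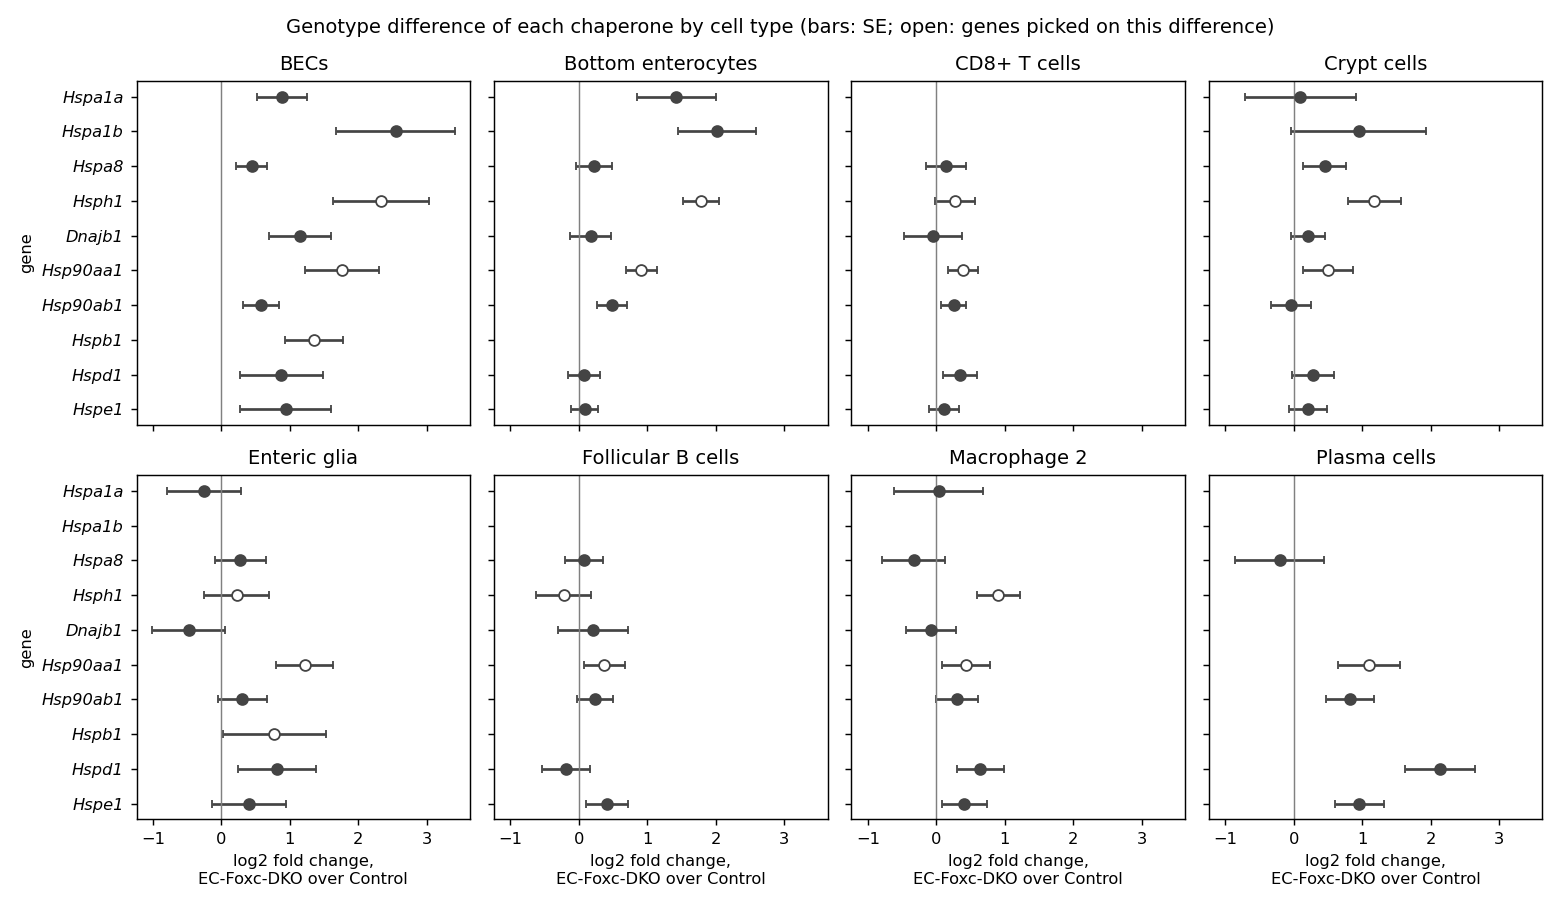
log2 fold change of EC-Foxc-DKO over Control (x) for each chaperone that passed the count filter (y) in the 8 tested cell types, with bars of 1 SE. The SE was worked back from the edgeR F statistic, is not the spread between mice and is no test of the open points. Filled points are tested genes, none of which passed an adjusted p of 0.05, and open points are Hsph1, Hsp90aa1 and Hspb1, which were picked on this difference.

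Among the partners of these chaperones the place of the highest level differed by list, and no gene was called by genotype. All 8 genes of the cytosolic chaperonin TRiC/CCT, which folds actin and tubulin, were highest in crypt cells, with Cct2 at 360 ± 6.79 CPM (n = 4). So were Fkbp4 (452 ± 87.4) and Ptges3 (342 ± 69.2), co-chaperones of HSP90, and Hspa9 (373 ± 60.5) and Grpel1 (239 ± 51.7), the HSP70 system of mitochondria. Among small heat shock proteins Cryab, alpha B crystallin, was at 3427 ± 843 CPM in enteric glia (n = 4), where Hspb1 was also high, and Hspb2 at 177 ± 39.1 CPM in myocytes and pericytes (n = 2). Dnaja1, another HSP40, was highest in tuft cells (739 ± 152, n = 3). Crypt cells led for 7 of 15 HSP90 co-chaperones and 6 of 10 mitochondrial chaperones and proteases, but for only 2 of 16 genes of the HSP70 system, 1 of 15 J-domain genes, 0 of 10 heat shock factors and regulators and 0 of 7 small heat shock genes. Over 97 listed chaperone, regulator and immediate early genes and 566 tests, 0 were called by edgeR. An unadjusted p under 0.05 was found in 32 of the 566, against 2.60% of tests over all genes. Of these, 13 (of 103 tests) were chaperones of the endoplasmic reticulum and 10 (of 107) immediate early genes, lists kept for comparison. Among the partners there were 1 of 60 for the HSP70 system, 2 of 71 for J-domain genes, 3 of 85 for HSP90 co-chaperones and 3 of 62 for TRiC/CCT. Small heat shock genes (6 tests), mitochondrial chaperones (40) and heat shock factors and regulators (32) had 0. In BECs 8 of 8 TRiC/CCT genes had positive log2 fold changes (median 0.38), with EC-Foxc-DKO above for 5. Both Dnaja1 levels there were above those of Control (0.92, SE 0.30). The HSP70 system genes were at a median of 0.15 in BECs with 0 of 7 apart, HSP90 co-chaperones at 0.35 with 5 of 10 above and 3 below, other J-domain genes at 0.26 with 2 of 7 above, mitochondrial chaperones at 0.09 with 0 of 2 apart, and heat shock factors and regulators at 0.04 with 1 of 4 above. In each case 14.9% of all BEC genes had EC-Foxc-DKO above. No further small heat shock gene could be fitted in BECs.

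Likeness of pattern was described by Spearman correlation over the 22 cell type means, which share libraries and differ in depth. Hsph1 was most like Luc7l (rho = 0.93), Gm47283 (0.90), Cbx1 (0.90), Prkag1 (0.89) and Bccip (0.87) among 6576 genes of at least 20 CPM. Among the chaperones Hsph1 was like Hsp90ab1 (0.91), Hsp90aa1 (0.82) and Hspd1 (0.82), and unlike Dnajb1 (0.0051) and Hspa1a (0.15). The sum of all 10 was most like Cct6a (0.94), Bccip (0.93), Cacybp (0.93), Tcp1 (0.92) and Rbm8a (0.91), of which Cct6a and Tcp1 are TRiC/CCT subunits and Cacybp is a listed HSP90 co-chaperone. Between mice within the 8 tested types (32 points, 4 mice each), Hsph1 was most like Hsp90aa1 (0.85) among the 10, and both were picked for higher counts in EC-Foxc-DKO mice. The genes outside the 10 that came closest to Hsph1 were Ube2d3 (0.80), Hax1 (0.77), Cnot6 (0.76), Rassf1 (0.75) and Msn (0.75), and those closest to the sum were Cct8 (0.85), Ran (0.81), Mrto4 (0.80), Lsp1 (0.80) and Cct6a (0.79).

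The filter on damaged barcodes bears on these levels. Over all barcodes, and in CPM of the UMIs of nuclear genes only, the 10 genes together were at 5754, 4126, 6698 and 9468 in barcodes with up to 5% mitochondrial UMIs (Control 1, Control 2, EC-Foxc-DKO 1, EC-Foxc-DKO 2) and at 1197, 1921, 1287 and 2609 in those with over 50%. Hspd1 went from 449, 209, 451 and 969 to 37.1, 78.9, 45.9 and 112. Dnajb1 did not follow, at 62.7, 33.4, 57.4 and 63.5 in the first class and 45.3, 43.0, 40.4 and 84.2 in the last. In the last class Hspa1a was at 3.30, 15.1, 7.65 and 42.7 and Hspa1b at 4.12, 6.97, 6.56 and 50.5. EC-Foxc-DKO 2 was thus highest for both genes in these damaged barcodes too, on 38 and 45 UMIs. These classes differ in cell type as well as in damage, and the part of each was not tested.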

How the data were processed

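Distal jejunum of 4 mice (2 Control, 2 EC-Foxc-DKO, grouped and numbered by the labels) was profiled with 10x 3′ single-cell libraries. By the methods of the paper, the tissue was first dissociated to single cells in a warm digestion buffer. The part of this step in the levels of chaperone and immediate early genes was not tested. The deposited files hold UMI counts per gene and barcode, which the authors made with Cell Ranger on mm10 with the Cre sequence added (version 4.0.0 in the submitters' processing notes), unnormalised. A joined table of the same counts served only to find which genes enter the mitochondrial share. Barcodes with more than 10% mitochondrial UMIs were dropped, as in the study. Cells were clustered with scanpy 1.11.5 and named by the study's and textbook markers, and clusters that failed the marker check stayed unnamed, so cell types may differ from the study's. Doublets were kept, since the caller marked 8, 0, 2 and 6 cells in the 4 libraries and so did not work. As an alternative, the cells with the highest scores of this same caller were removed, at an assumed rate of 0.8% per 1000 barcodes. These are called likely doublets below, and since the caller did not work, their removal says little about doublets.

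UMIs of the cells of 1 type were added up within each mouse. Genotypes were tested with edgeR 4.0.16 (R 4.3.3, filterByExpr, TMM, quasi-likelihood, Benjamini-Hochberg at 0.05) in the 8 types with at least 10 cells per mouse. DESeq2 1.42.0 was an alternative. The fit was tested on simulated counts. Whether these 4 mice shared a litter is not given in the sources used here, and the replicate numbers only name them. Genes named are the 10 chaperones in every type, listed genes that were called, up to 3 of each list by highest mean level, the 5 most like genes, and marker genes for the check of names. The 10 genes and all lists were chosen with earlier results of these data known. Gene positions come from GENCODE M21, upstream sequences from RefSeq GRCm38.p6. Shares of cells were compared after thinning to 1000 UMIs.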

Additional observations from a re-analysis of the deposited data

How the results depend on the processing

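The leading cell type of each of the 10 genes was the same with cells clustered without chaperone genes and with a limit of 20% mitochondrial UMIs, except that the latter moved Hsp90aa1 from germinal center B cells to crypt cells. The former kept 2913 of 2923 variable genes and so could change little. The mean level of Hsp90ab1 in crypt cells was 4137 CPM without mitochondrial UMIs in the total and 4038 CPM with the 20% limit, against 3939 CPM. Leaving out 1 mouse at a time gave 3122 to 3670 CPM for Hspa8, 120 to 199 for Hsph1, 3927 to 3970 for Hsp90ab1, 1178 to 1393 for Hspd1 and 1264 to 1428 for Hspe1 in crypt cells, 38.7 to 149 for Hspa1b and 869 to 1623 for Hspb1 in BECs, 95.9 to 117 for Hspa1a and 106 to 160 for Dnajb1 in enteric glia, and 1077 to 1434 for Hsp90aa1 in germinal center B cells.

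The count of genes called over the 8 types was 1, against 14 with DESeq2, 477 with no filter on low counts, 11 with the replicate number as a block, 0 with the 20% limit and 0 with likely doublets removed (7 types each, plasma cells having no value), and 125 to 456 with 1 mouse left out, where the lone mouse is assumed to vary like the others. Calls among the 7 tested chaperones were 0, against 2 with no filter and 0 to 1 with 1 mouse left out. With no filter these were Hspa1b in BECs (adjusted p = 0.000348) and in bottom enterocytes (0.000765). With 1 mouse left out, the calls were Hspa1b in BECs, without Control 1 or without EC-Foxc-DKO 1, and Hspd1 in plasma cells, without EC-Foxc-DKO 2. In these fits 1 mouse was enough to pass the filter, and both genes reached its cutoff only in EC-Foxc-DKO mice. These calls are therefore no support for a difference. Calls among the listed genes were 0, against 7 with no filter and 1 to 20 with 1 mouse left out. The cause was not tested. Without EC-Foxc-DKO 2 the BEC log2 fold changes of Hspd1 (-0.24) and Hspe1 (-0.39) were reversed, and with 1 mouse left out they ranged up to 1.65 and 1.71.

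The replicate numbers did not pair the mice: with 2 pairs, the correlation of same-numbered deviations was between -0.33 in crypt cells and 0.047 in plasma cells. Where it was under -0.1, in crypt cells, Macrophage 2 cells and bottom enterocytes, a crossed block was added after seeing the data. Run in all 8 types, it gave 225 genes (218 of them in bottom enterocytes), 8 listed genes and 1 tested chaperone, Hspa1b in bottom enterocytes. The same-number block changed no call of a tested chaperone. Control 2, with 348 kept cells, limits the depth of every comparison.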

Other observations

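Chaperones of the endoplasmic reticulum, which fold secreted protein, were not among the 10 genes. In bottom enterocytes 14 of 14 had positive log2 fold changes (median 0.79, against 0.0094 for all genes), and 12 of 14 were higher in both EC-Foxc-DKO mice than in both Control mice, against 17.4% of all genes. Hspa5 (BiP) was at 0.87 (SE 0.28), Hsp90b1 at 0.69 (SE 0.26) and Calr at 0.63 (SE 0.24) there. Macrophage 2 cells had 14 of 14 positive (median 0.48, 12 of 14 apart, against 15.8%), and crypt cells 14 of 14 positive (median 0.48) with 4 apart, against 14.9%. In BECs 7 of 11 were positive and 0 apart. Enteric glia had 11 of 11 positive (median 0.29). Follicular B cells had 7 of 12 positive (median 0.08), CD8+ T cells 6 of 13 (-0.05) and plasma cells 5 of 14 (-0.12). None passed an adjusted p of 0.05 in edgeR. An unadjusted p under 0.05 was found in 13 of 103 tests of the list, against 2.60% of tests over all genes. The genes of the list are not independent of each other. As given above, the mice gave unlike cells to bottom enterocytes and to Macrophage 2 cells, and the part of this was not tested.

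Immediate early genes differed in sign between cell types. In BECs 15 of 15 were positive (median 0.73), with Fos at 0.86 (SE 0.47). There 5 of 15 were higher in both EC-Foxc-DKO mice than in both Control mice, against 14.9% of all genes. In Macrophage 2 cells 1 of 15 was positive (median -0.84), with Jun at -1.45 (SE 0.70). There 6 of 15 were lower in both EC-Foxc-DKO mice than in both Control mice, against 15.1% of all genes. In Macrophage 2 cells the immediate early genes summed to 15214 and 25012 CPM in Control 1 and 2. The sums were 14114 and 10434 CPM in EC-Foxc-DKO 1 and 2. The high mouse, Control 2, had 30 of its 36 cells in 1 cluster of the finer clustering, against 1 of 71, 17 of 94 and 11 of 96. The part of this was not tested. The difference between these cell types was not tested. Hsf1, named for its role and outside the naming rule, was highest in follicular B cells (36.0 ± 9.20 CPM, n = 4), a type without a UMI of Hspa1a.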
